A study of Sus scrofa with 6 samples.

Results

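Leukocyte marker genes were followed in RNA sequencing libraries of pork loin. A list of 39 gene symbols was taken, each of them a marker of T cells, B and plasma cells, cytotoxic lymphocytes, leukocytes in general, monocytes and macrophages, mast cells and basophils, or neutrophils. Of these, 38 had a row under that name among the 25322 genes of the deposited table, and 26 had enough counts to be tested, out of 13209 genes tested in all. CXCR2, a chemokine receptor of neutrophils, was not matched by name and was not analysed here. GZMA had 2 rows, and the row with the higher summed count was used. The study measured the longissimus dorsi, the long back muscle, of Wei and Yorkshire pigs, with 3 libraries of Wei muscle and 3 of Yorkshire muscle. Wei pigs had free access to commercial feed and water and were slaughtered at 90 kg, and the labels describe the keeping of the Yorkshire pigs as similar without a slaughter weight. No sex or age is given, and the titles carry the codes YH for the Wei libraries and LWH for the Yorkshire libraries without explaining them. Nothing in the labels states that libraries of a breed are separate animals, and p-values then measure only library-to-library spread, which may be technical.

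Skeletal muscle consists mostly of fibres, and leukocytes make up a small share of its cells. Resident macrophages lie in the connective tissue between fibres, take up debris and secrete complement C1q, while T cells and cytotoxic lymphocytes patrol the tissue from the blood. Each T cell recognises antigen through a receptor whose signal is passed on by the CD3 chains and CD247 to the kinase LCK, with CD4 or CD8 as coreceptor. B cells signal through CD79A and CD79B, and plasma cells join antibodies with JCHAIN. Mast cells bind IgE through a receptor that contains FCER1A and MS4A2.

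The muscle label was checked against fibre genes. A list of skeletal muscle fibre genes, which includes the actin gene ACTA1 and the creatine kinase gene CKM, summed to between 98163 and 193443 CPM (counts per 1e6 counts, after TMM scaling) in Wei libraries and between 151591 and 189666 CPM in Yorkshire libraries. Total gene counts ranged from 15285197 to 22570075 in Wei libraries and from 17876646 to 27096747 in Yorkshire libraries. At these depths a count of 0, read as allowing up to 3 counts, allows a level of 0.111 to 0.196 CPM before TMM scaling.

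Yorkshire replicate 3 stood apart from the other 5 libraries in these genes. The 38 marker genes summed to 78.1, 82.9 and 84.9 CPM in Wei replicates 1 to 3, against 72.2, 83.6 and 269 CPM in Yorkshire replicates 1 to 3. Yorkshire replicate 3 was thus 3.17-fold above the highest of the others, while the 2 other Yorkshire libraries lay within or below the Wei values. Of the 26 genes tested, 24 had their highest value in Yorkshire replicate 3, where 19.1% of all genes tested did, and 16 of the 24 were there more than 2-fold above the second highest library, where 1.64% of all genes tested were. JCHAIN and GATA2 were highest in Wei replicate 3. More leukocytes and more RNA of these genes per leukocyte in Yorkshire replicate 3 cannot be told apart in bulk tissue. Values without Yorkshire replicate 3 therefore stand beside those from all libraries.

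**Figure D1:**
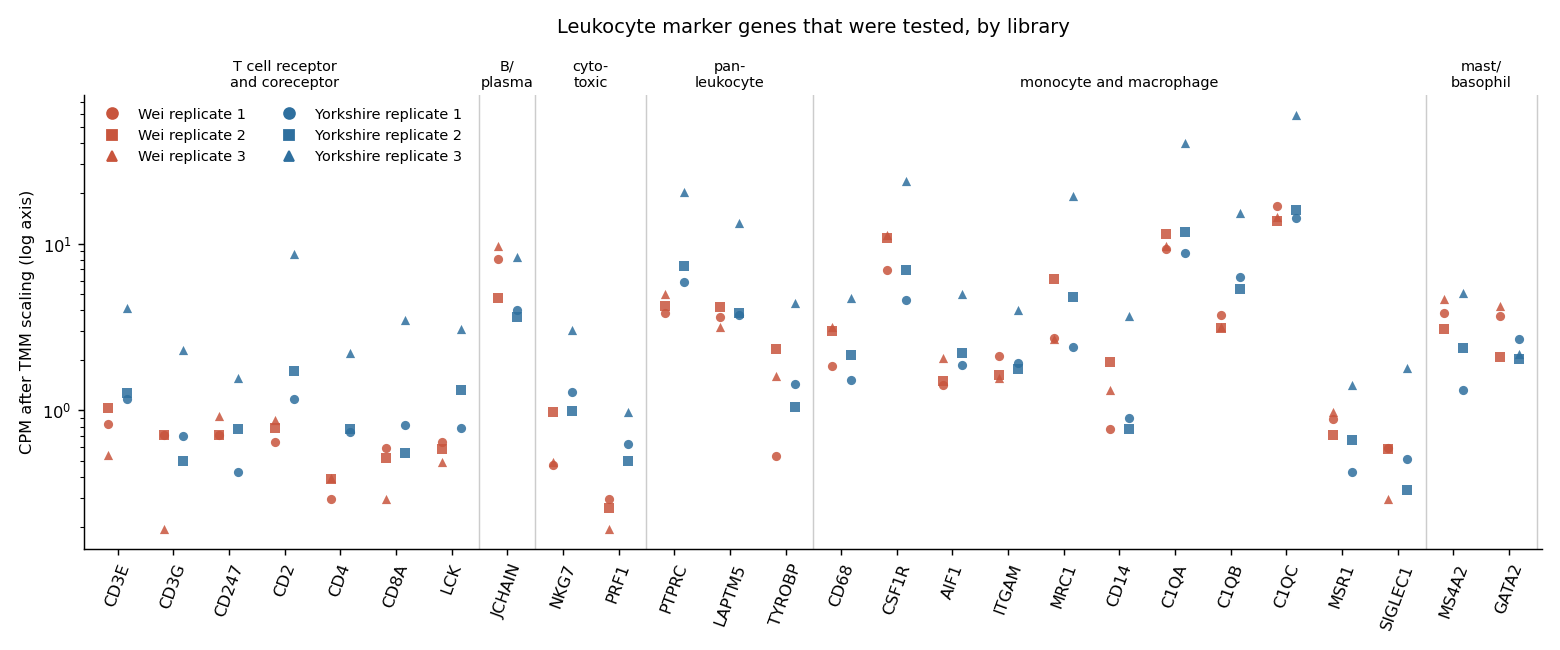
Each point is the TMM-scaled CPM (log axis) of a tested leukocyte marker gene in a library, with Wei on the left and Yorkshire on the right of each gene and a marker shape per replicate. The blue triangles of Yorkshire replicate 3 are the highest point for 24 of the 26 genes, and the exceptions are JCHAIN and GATA2.

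No marker gene passed the test between the breeds. With edgeR's quasi-likelihood test and Benjamini-Hochberg adjustment over all genes, 0 of the 26 genes were lower and 0 higher in Wei muscle at an adjusted p under 0.05, where 2.35% of all genes tested were lower and 2.73% higher. At an unadjusted p under 0.05, 9 of the 26 were lower in Wei and 0 higher, beside 11.8% and 11.4% of all genes tested. Their median log2 fold change, Wei over Yorkshire, was -0.96 beside -0.023 over all genes tested, and 22 of the 26 log2 fold changes were negative beside 52.2%. The count filter can favour genes that are high in a group, and 2 of the 26, CD4 and PRF1, reached its level in no Wei library. Fitted without a count filter, all 38 genes had a median of -0.90 beside -0.033 over all genes, with 30 negative beside 52.8%, and C1QB passed with an adjusted p of 0.045, where 1.88% of all genes were lower and 2.51% higher. DESeq2 gave an adjusted p to 30 of the 38 and called 4 of them, CD2, GZMA, PTPRC and C1QB, lower in Wei, and 0 higher, beside 4.03% and 5.16% of all genes. The limma voom test called 0 of the 26 in either direction, beside 2.13% of all genes lower and 2.74% higher. In 8 of the 26, CD3E, CD2, CD4, LCK, NKG7, PRF1, PTPRC and C1QB, all Wei libraries lay below all Yorkshire libraries, beside 15.3% of all genes tested, and in 0 they lay above, beside 14.3%.

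Without Yorkshire replicate 3 the median log2 fold change of the 25 marker genes then tested was -0.017 beside -0.0028 over all genes, and 14 of the 25 were negative beside 50.3%. None passed edgeR's adjusted threshold, where 0.539% of all genes were lower and 0.713% higher. At an unadjusted p under 0.05, CD2, CD4, PTPRC and C1QB were lower in Wei, beside 9.3% of all genes, and JCHAIN, CSF1R and MS4A2 higher, beside 9.78%.

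**Figure D2:**
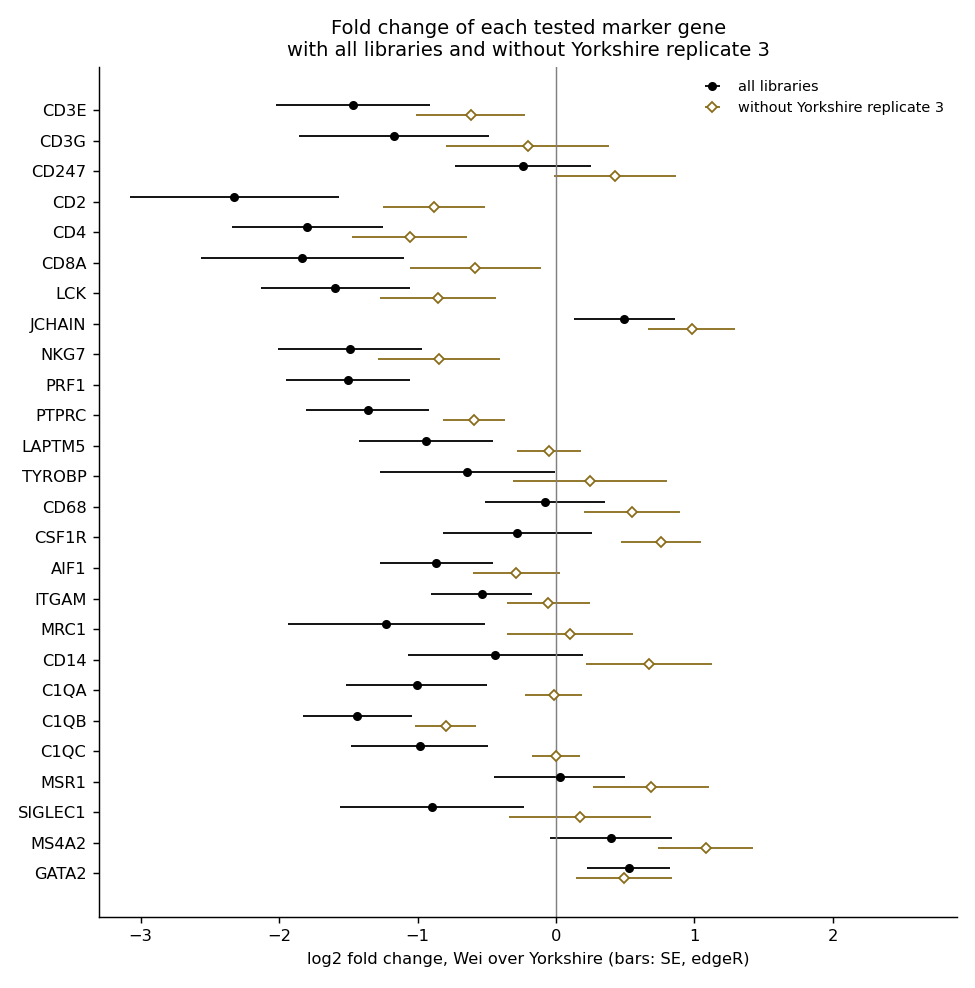
Log2 fold change of each tested marker gene, Wei over Yorkshire, with its SE from edgeR, for all libraries (black circles) and without Yorkshire replicate 3 (open diamonds; PRF1 missed the count filter there). Without Yorkshire replicate 3, 14 of the 25 genes then tested lay below 0, and all 14 were also below 0 with all libraries. CD247, TYROBP, CD68, CSF1R, MRC1, CD14 and SIGLEC1 lay below 0 with all libraries and above 0 without Yorkshire replicate 3.

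Genes of the T cell receptor and its coreceptors were low in every Wei library and in the other Yorkshire libraries, and high in Yorkshire replicate 3. Their 9 rows summed to 5.03, 5.2 and 4.06 CPM in Wei replicates 1 to 3, against 6.41, 7.96 and 29.7 CPM in Yorkshire replicates 1 to 3. The lowest Yorkshire sum lay above the highest Wei sum. Of the 7 genes tested, 0 passed edgeR's adjusted threshold. Their median log2 fold change was -1.59, and -0.62 without Yorkshire replicate 3.

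CD2, an adhesion receptor of T cells and natural killer cells on chromosome 4 (Sscrofa10.2, 113925945 to 113941749), had 0.651, 0.78 and 0.881 CPM in Wei replicates 1 to 3, against 1.17, 1.71 and 8.67 CPM in Yorkshire replicates 1 to 3. The breeds did not overlap, and Yorkshire replicate 3 was 5.06-fold above the next library, the widest gap among the genes tested in the list. Its log2 fold change was -2.32 ± 0.76 (SE; edgeR, Benjamini-Hochberg adjusted p = 0.111; DESeq2 adjusted p = 0.00861). Without Yorkshire replicate 3 it was -0.88 ± 0.37 (edgeR adjusted p = 0.249).

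CD3E, CD3D and CD3G, whose products carry the signal of the T cell receptor into the cell, lie side by side on chromosome 9 between 50660810 and 50696073 (Sscrofa10.2). CD3E had 0.828, 1.04 and 0.538 CPM in Wei, against 1.17, 1.27 and 4.08 CPM in Yorkshire, and its log2 fold change was -1.47 ± 0.56 (edgeR adjusted p = 0.1597), or -0.62 ± 0.39 without Yorkshire replicate 3. CD3D, too low to be tested, had 7, 6 and 7 counts in Wei and 11, 17 and 86 counts in Yorkshire. Scaled to CPM, neither gene overlapped between the breeds. CD3G did overlap, with 12, 11 and 4 counts in Wei and 18, 9 and 63 in Yorkshire, as did CD247, the zeta chain, with 12, 11 and 19 in Wei and 11, 14 and 43 in Yorkshire. The log2 fold change of CD247 was -0.24 ± 0.49 with all libraries and 0.42 ± 0.44 without Yorkshire replicate 3.

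CD4, the coreceptor of helper T cells, had 0.296, 0.39 and 0.391 CPM in Wei, against 0.742, 0.774 and 2.22 CPM in Yorkshire. LCK, the kinase that phosphorylates the CD3 chains, had 0.651, 0.585 and 0.489 CPM in Wei, against 0.782, 1.33 and 3.06 CPM in Yorkshire. In both genes every Yorkshire library stood above every Wei library. Their log2 fold changes were -1.797 ± 0.54 and -1.59 ± 0.54 (edgeR adjusted p = 0.0934 and 0.1199), and -1.06 ± 0.41 and -0.85 ± 0.42 without Yorkshire replicate 3. CD8A, a chain of the coreceptor of cytotoxic T cells, had 0.592, 0.52 and 0.294 CPM in Wei, against 0.821, 0.553 and 3.498 CPM in Yorkshire, with an overlap between the breeds and a log2 fold change of -1.83 ± 0.73 (edgeR adjusted p = 0.179), or -0.58 ± 0.47 without Yorkshire replicate 3. CD8B, the partner chain, was too low to be tested, with 3, 1 and 0 counts in Wei and 4, 2 and 31 in Yorkshire.

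The 3 cytotoxic lymphocyte genes of the marker list were lower in all Wei libraries than in all Yorkshire libraries, though 0 of the 2 tested passed edgeR's adjusted threshold. GZMA, NKG7 and PRF1, components of the granules with which T and natural killer cells kill target cells, summed to 0.769, 1.3 and 0.734 CPM in Wei replicates 1 to 3, against 2.15, 1.83 and 5.79 CPM in Yorkshire replicates 1 to 3. The breeds did not overlap for the sum or for any of the 3 genes. Over all genes tested, 15.3% had all Wei libraries below all Yorkshire libraries. For NKG7 the gap was narrow, with 15 counts in Wei replicate 2 against 18 in Yorkshire replicate 2, and PRF1 reached the count filter's level in no Wei library. GZMA, the protease granzyme A, had 0, 1 and 1 counts in Wei, against 6, 6 and 49 counts in Yorkshire. Over pooled counts relative to summed library size the ratio of Wei to Yorkshire was 0.0432 (exact 95% counting interval 0.00511 to 0.163), and DESeq2 gave an adjusted p of 0.02197. The gene missed the count filter, and the other row named GZMA could share its reads, so its value is uncertain.

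PRF1, the pore-forming protein perforin, had 0.296, 0.26 and 0.196 CPM in Wei, against 0.625, 0.498 and 0.984 CPM in Yorkshire. NKG7, a granule membrane protein, had 0.473, 0.975 and 0.489 CPM in Wei, against 1.29, 0.996 and 3.02 CPM in Yorkshire. The log2 fold changes were -1.502 ± 0.45 and -1.49 ± 0.52 (edgeR adjusted p = 0.0889 and 0.132). For NKG7 the log2 fold change was -0.84 ± 0.44 without Yorkshire replicate 3, and PRF1 was then below the count filter.

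GNLY, which encodes the pig's NK-lysin, an antimicrobial protein of the same granules, was called lower in Wei. It is not in the marker list but in a list of further cytotoxic and natural killer genes. There 1 of 5 tested genes passed, beside 2.35% of all genes tested lower in Wei and 2.73% higher. GNLY was that gene. It had 0, 3 and 0 counts in Wei replicates 1 to 3, against 71, 39 and 85 counts in Yorkshire replicates 1 to 3. The Yorkshire libraries were close together here, and Yorkshire replicate 3 at 3.097 CPM was near Yorkshire replicate 1 at 2.77 CPM. The edgeR adjusted p was 0.0109, and it ranged from 0.0089 to 0.048 with each library left out in turn. GNLY reached the count filter's level in no Wei library, so it was tested only because it was high in Yorkshire, and its call is no support for the marker genes. Over pooled counts relative to summed library size the ratio of Wei to Yorkshire was 0.0203 (exact 95% counting interval 0.00414 to 0.0601). Of the other 4 tested genes in that list, none passed edgeR's test, and DESeq2 called KLRK1 lower in Wei (adjusted p = 0.0131). Named after their values had been seen, they include KLRK1, an activating receptor of natural killer cells, at -1.84 ± 0.51 (edgeR adjusted p = 0.0779), and TBX21, a transcription factor of cytotoxic and T helper cells, at -1.62 ± 0.45 (edgeR adjusted p = 0.0745). TBX21 also reached the filter's level in no Wei library. GZMM and CTSW, also tested in that list, overlapped between the breeds, at -0.52 ± 0.34 and -0.90 ± 0.38 (edgeR adjusted p = 0.393 and 0.194).

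Among B and plasma cell genes, JCHAIN had most of the counts and was highest in Wei replicate 3, while the B cell gene MS4A1 was highest in Yorkshire replicate 3. JCHAIN, which joins IgA and IgM molecules, had 8.11, 4.75 and 9.64 CPM in Wei, against 3.99, 3.65 and 8.27 CPM in Yorkshire. Yorkshire replicate 3 lay among the Wei values, and the other Yorkshire libraries lay below all of them. The log2 fold change was 0.49 ± 0.37 (edgeR adjusted p = 0.449), and 0.98 ± 0.32 without Yorkshire replicate 3 (adjusted p = 0.155). Markers of B cells themselves were near the detection limit. CD79A, a signalling chain of the B cell receptor, had 5, 5 and 3 counts in Wei and 1, 0 and 9 in Yorkshire. Scaled to CPM, Yorkshire replicate 3 at 0.328 was level with Wei replicate 2 at 0.325. CD79B, the partner of CD79A, had 1, 1 and 0 counts in Wei and 3, 3 and 3 in Yorkshire. MS4A1, which encodes the B cell antigen CD20, had 2, 1 and 4 counts in Wei and 0, 0 and 18 in Yorkshire, and its 18 counts in Yorkshire replicate 3 were the most in any library. CD79B did not overlap between the breeds in CPM, but at these counts no difference was detectable.

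Genes found in leukocytes at large followed Yorkshire replicate 3. PTPRC, the phosphatase CD45 on the surface of nucleated blood cells, had 3.85, 4.23 and 4.99 CPM in Wei replicates 1 to 3, against 5.901, 7.301 and 20.3 CPM in Yorkshire replicates 1 to 3. The breeds did not overlap, and the log2 fold change was -1.36 ± 0.44 (edgeR adjusted p = 0.112), or -0.59 ± 0.22 without Yorkshire replicate 3 (adjusted p = 0.2095). LAPTM5, a lysosomal membrane protein of blood cells, had 3.61, 4.16 and 3.18 CPM in Wei, against 3.75, 3.82 and 13.2 CPM in Yorkshire. TYROBP, a signalling adaptor of myeloid and natural killer cells, had 0.532, 2.34 and 1.61 CPM in Wei, against 1.45, 1.05 and 4.37 CPM in Yorkshire. Apart from Yorkshire replicate 3, both genes overlapped between the breeds. The log2 fold changes of LAPTM5 and TYROBP were -0.94 ± 0.48 and -0.64 ± 0.63 (edgeR adjusted p = 0.282 and 0.577), and -0.05 ± 0.23 and 0.25 ± 0.55 without Yorkshire replicate 3.

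**Figure D3:**
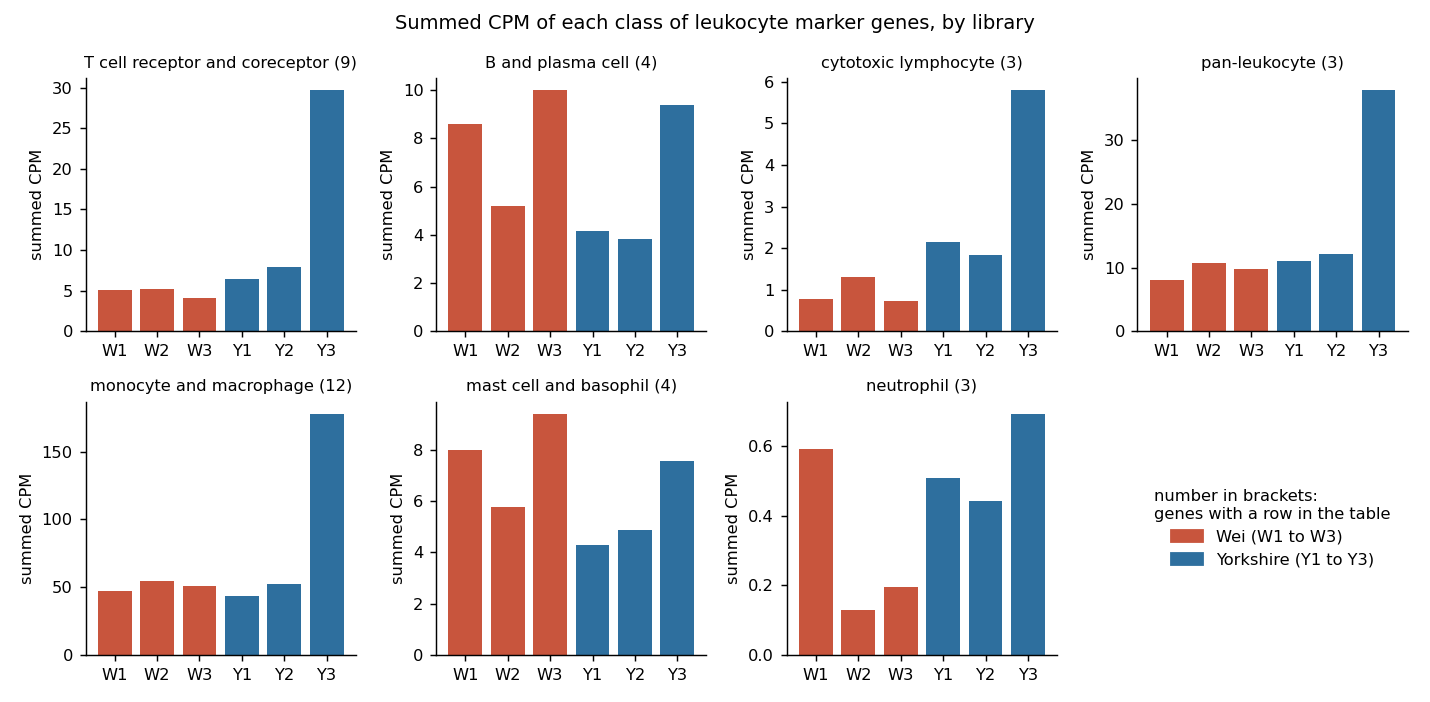
Bars give the summed CPM of each class of marker genes in each library, Wei (W1 to W3) to the left of Yorkshire (Y1 to Y3), each panel with its own axis from 0. Yorkshire replicate 3 exceeds the other libraries by 3.72-fold in T cell genes and 3.25-fold in macrophage genes, whereas Wei replicate 3 has the highest sum for mast cell and basophil genes and for B and plasma cell genes, the second of which is mostly JCHAIN.

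Macrophage genes overlapped between the breeds in their sum, apart from Yorkshire replicate 3. The 12 monocyte and macrophage rows summed to 47.2, 54.6 and 50.7 CPM in Wei replicates 1 to 3, against 43.6, 52.5 and 178 CPM in Yorkshire replicates 1 to 3, so that the Wei sums lay around those of Yorkshire replicates 1 and 2. Of the 11 genes tested, 0 passed edgeR's adjusted threshold. Their median log2 fold change was -0.86, and 0.10 without Yorkshire replicate 3.

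C1QC and C1QA were the most abundant of the marker genes per length. In the deposited FPKM values, which correct for gene length, C1QC stood at 10.4 ± 2.18 in Wei and 21.4 ± 19.3 in Yorkshire (SD, n = 3 each), and C1QA at 9.15 ± 1.09 in Wei and 19.2 ± 17.3 in Yorkshire. CD4, CD8A and PRF1 had mean FPKM values under 0.5 in both breeds. C1QA, C1QC and C1QB, which encode the chains of the complement protein that tags debris for uptake, lie together on chromosome 6 between 74609912 and 74629862 (Sscrofa10.2). C1QA had 9.23, 11.4 and 9.69 CPM in Wei, against 8.83, 11.7 and 40.1 CPM in Yorkshire, and C1QC had 16.9, 13.7 and 14.4 CPM in Wei, against 14.3, 15.9 and 58.7 CPM in Yorkshire. For these 2 chains the breeds overlapped. Their log2 fold changes were -1.01 ± 0.51 and -0.99 ± 0.497 (edgeR adjusted p = 0.276 and 0.275), and without Yorkshire replicate 3 they were -0.02 ± 0.21 and -0.0012 ± 0.17.

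C1QB, unlike C1QA and C1QC in these values, did not overlap between the breeds. It had 3.73, 3.12 and 3.18 CPM in Wei, against 6.33, 5.31 and 15.3 CPM in Yorkshire. The log2 fold change was -1.43 ± 0.39 (edgeR adjusted p = 0.0754; DESeq2 adjusted p = 0.00612), and -0.797 ± 0.22 without Yorkshire replicate 3 (edgeR adjusted p = 0.114). Per count of C1QA in the same library there were 0.404, 0.273 and 0.328 counts of C1QB in Wei replicates 1 to 3, against 0.717, 0.453 and 0.382 in Yorkshire replicates 1 to 3. The highest ratio was that of Yorkshire replicate 1 (95% Wilson interval 0.586 to 0.877), and Wei replicate 1 lay above Yorkshire replicate 3.

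CSF1R, the receptor for the growth factor that maintains macrophages, had 6.98, 10.8 and 11.3 CPM in Wei, against 4.61, 6.91 and 23.6 CPM in Yorkshire. Its log2 fold change was -0.28 ± 0.54 with all libraries and 0.76 ± 0.29 without Yorkshire replicate 3 (edgeR adjusted p = 0.797 and 0.212). Wei replicates 1 to 3 lay between Yorkshire replicate 3 and the others. MRC1, the mannose receptor of resident macrophages, had 2.72, 6.11 and 2.69 CPM in Wei, against 2.38, 4.81 and 19.3 CPM in Yorkshire. CD68, a lysosomal protein of macrophages, had 1.83, 2.99 and 3.18 CPM in Wei, against 1.52, 2.16 and 4.74 CPM in Yorkshire. Both overlapped between the breeds, and their log2 fold changes were -1.23 ± 0.71 and -0.08 ± 0.43 (edgeR adjusted p = 0.334 and 0.931), and 0.101 ± 0.46 and 0.55 ± 0.35 without Yorkshire replicate 3.

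AIF1, an actin-binding protein of macrophages, had 1.42, 1.495 and 2.06 CPM in Wei, against 1.88, 2.21 and 4.95 CPM in Yorkshire. ITGAM, an integrin chain of myeloid cells, had 2.13, 1.63 and 1.57 CPM in Wei, against 1.91, 1.77 and 3.97 CPM in Yorkshire. In each of these the excess of Yorkshire replicate 3 was smaller than in MRC1, 2.24-fold and 1.86-fold over the highest other library beside 3.17-fold. The log2 fold changes of AIF1 and ITGAM were -0.86 ± 0.41 and -0.54 ± 0.37 (edgeR adjusted p = 0.242 and 0.407), and -0.29 ± 0.31 and -0.05 ± 0.300 without Yorkshire replicate 3. CD14, a coreceptor for bacterial lipopolysaccharide, the scavenger receptor MSR1 and SIGLEC1, a sialic acid receptor, had adjusted p of 0.716, 0.981 and 0.445 with edgeR. Their highest values were also in Yorkshire replicate 3, with 101, 39 and 49 counts there. The row named CD163 had 1 count over all libraries. The table of gene names pairs the symbol CD163, a haemoglobin scavenger receptor of macrophages, with another gene ID, so no level of that receptor was drawn from this row.

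Ratios of marker counts within a library do not depend on how the libraries were scaled. T cell receptor and coreceptor genes had 0.107, 0.0952 and 0.0801 counts per count of the macrophage genes in Wei replicates 1 to 3, against 0.147, 0.152 and 0.167 in Yorkshire replicates 1 to 3. Yorkshire replicate 3, with several times the level of both classes, had nearly the ratio of the other Yorkshire libraries, and no Wei library reached the lowest Yorkshire value. The 95% Wilson intervals were 0.0853 to 0.133 for Wei replicate 1, the highest Wei value, and 0.125 to 0.173 for Yorkshire replicate 1, the lowest Yorkshire value, and so overlapped. The CD3 chains per count of PTPRC gave another order, with 0.508, 0.508 and 0.216 in Wei replicates 1 to 3, against 0.391, 0.371 and 0.469 in Yorkshire replicates 1 to 3, so that Wei replicates 1 and 2 lay above all Yorkshire libraries and Wei replicate 3 below them. The C1q chains together had 4.27, 2.62 and 2.42 counts per count of CSF1R in Wei, against 6.38, 4.76 and 4.84 in Yorkshire, again without overlap of the values. The 95% Wilson interval of Wei replicate 1, 3.497 to 5.22, overlapped those of Yorkshire replicates 2 and 3, 3.93 to 5.77 and 4.45 to 5.27. MRC1 had 0.3898, 0.566 and 0.238 counts per count of CSF1R in Wei, against 0.517, 0.696 and 0.821 in Yorkshire, where Wei replicate 2 lay above Yorkshire replicate 1. CD8A per CD4 ranged from 0.75 to 2 in Wei and from 0.714 to 1.57 in Yorkshire, with overlapping 95% Wilson intervals in all libraries. These ratios were chosen after the counts had been seen and carry no test.

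**Figure D4:**
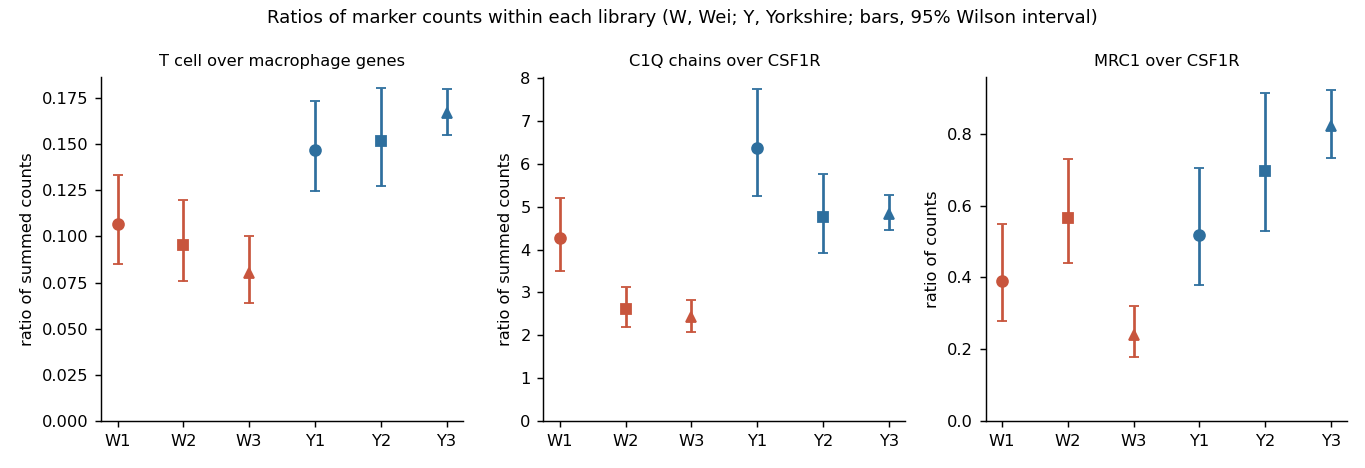
Ratios of marker gene counts within each library, Wei (W1 to W3) left of Yorkshire (Y1 to Y3), with 95% Wilson intervals that cover counting error only. The T cell to macrophage ratio lies between 0.0801 and 0.107 in Wei and between 0.147 and 0.167 in Yorkshire, while MRC1 over CSF1R overlaps between the breeds.

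Mast cell and basophil genes gave a different order of libraries. The 4 rows summed to 7.99, 5.79 and 9.396 CPM in Wei, against 4.299, 4.87 and 7.58 CPM in Yorkshire. MS4A2, the beta chain of the IgE receptor, had 3.85, 3.06 and 4.65 CPM in Wei, against 1.33, 2.38 and 5.03 CPM in Yorkshire. Its log2 fold change was 0.397 ± 0.44 (edgeR adjusted p = 0.624), and 1.08 ± 0.34 without Yorkshire replicate 3 (adjusted p = 0.1499). GATA2, a transcription factor of mast cells that endothelium also expresses, had 3.67, 2.08 and 4.21 CPM in Wei, against 2.696, 2.05 and 2.19 CPM in Yorkshire, with no excess in Yorkshire replicate 3 and a log2 fold change of 0.53 ± 0.298 (adjusted p = 0.324). FCER1A, the alpha chain of the IgE receptor, had 7, 9 and 9 counts in Wei and 7, 8 and 6 in Yorkshire, and HDC, which makes histamine, had 1, 1 and 2 in Wei and 0, 0 and 4 in Yorkshire. KIT, the stem cell factor receptor that mast cells depend on, is not in the marker list but was the 1 tested gene of a further mast cell list. KIT did not follow them, with 0.947, 0.78 and 1.66 CPM in Wei, against 9.77, 9.18 and 10.4 CPM in Yorkshire. It was called lower in Wei at -3.08 ± 0.28 (edgeR adjusted p = 0.00353), beside 2.35% of all genes tested. IL1RL1 of that list, too low to be tested, had 6, 4 and 2 counts in Wei and 12, 14 and 43 in Yorkshire. SLC18A2, HPGDS and GATA1 had 4, 4 and 1 summed counts in Wei against 1, 0 and 0 in Yorkshire, too few to read a direction.

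Neutrophil genes were too low for a comparison. S100A8 and S100A9, the chains of the granulocyte protein calprotectin, were nearly absent from the counts. S100A8 had 0, 0 and 1 counts in Wei, against 1, 1 and 0 in Yorkshire, and S100A9 had 0, 0 and 1 counts in Wei, against 5, 2 and 2 in Yorkshire. For S100A9 the ratio of Wei to Yorkshire over pooled counts relative to summed library size was 0.146 (exact 95% counting interval 0.00334 to 1.06), an interval that includes 1. CSF3R, the receptor for granulocyte growth factor, had 10, 2 and 2 counts in Wei and 7, 5 and 17 in Yorkshire. In a list of further neutrophil genes 0 of 2 tested genes passed edgeR's test, which were NCF4 at -0.71 ± 0.52 and LCN2 at 0.901 ± 0.33.

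Further leukocyte genes were read from other lists. Of the general leukocyte list 0 of 13 tested genes passed edgeR's adjusted threshold, and all 13 were highest in Yorkshire replicate 3. It summed to 37.7, 35.1 and 34.99 CPM in Wei, against 43.1, 44.9 and 130 CPM in Yorkshire. Its most abundant genes were ARHGDIB, a regulator of small GTPases (-1.09 ± 0.29, adjusted p = 0.0676), and LCP1, an actin bundler (-1.37 ± 0.55, adjusted p = 0.184). The median was -0.87 with all libraries and -0.19 without Yorkshire replicate 3. In T cell signalling 0 of 6 genes passed, with FYN at -0.21 ± 0.18 and LCP2 at -0.93 ± 0.59, and in B cell signalling 0 of 4, with BLNK at 0.02 ± 0.56 and CD38 at -0.64 ± 0.63. The B cell signalling list summed to 4.61, 4.29 and 4.31 CPM in Wei, against 3.17, 2.16 and 9.36 CPM in Yorkshire, and all 4 tested genes were highest in Yorkshire replicate 3. In the macrophage and dendritic list 0 of 16 passed, with STAB1, a scavenger receptor, at -0.13 ± 0.33, and 13 of the 16 were highest in Yorkshire replicate 3. That list summed to 114, 136 and 128 CPM in Wei, against 83.2, 101 and 218 CPM in Yorkshire. Its median was -0.61 with all libraries and 0.10 without Yorkshire replicate 3. Named after their values had been seen, LYVE1 and FOLR2 were each highest in a Wei library, at 0.67 ± 0.71 and 0.43 ± 0.26 (adjusted p = 0.607 and 0.355). These are edgeR results. DESeq2 called ARHGDIB and CD53 of the general leukocyte list lower in Wei (adjusted p = 0.00746 and 0.0347). It also called CD6 of T cell signalling and LYZ of the macrophage list lower (0.0109 and 0.0185). CD6, too low to be tested with edgeR, had 1, 3 and 3 counts in Wei and 18, 7 and 68 in Yorkshire. LYZ had 7, 5 and 13 counts in Wei and 16, 12 and 212 in Yorkshire. With edgeR, LYZ was at -2.69 ± 1.02, and at -0.45 without Yorkshire replicate 3 (adjusted p = 0.160 and 0.627). In these 4 lists DESeq2 called 0 higher, beside 4.03% of all genes lower and 5.16% higher.

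Among chemokines and their receptors, 1 gene of 18 tested passed, beside 2.35% of all genes tested lower in Wei and 2.73% higher. It was CCL5, which attracts T cells and is made by cytotoxic lymphocytes. It had 0.947, 0.975 and 0.9298 CPM in Wei, against 2.54, 2.32 and 5.32 CPM in Yorkshire, and its log2 fold change was -1.84 ± 0.38 (edgeR adjusted p = 0.0361). The breeds did not overlap, but with any library left out its adjusted p was between 0.052 and 0.096. CXCL9 and CXCL10, ligands of CXCR3 that interferon gamma induces, were named after their values had been seen. CXCL9 had 77, 36 and 31 counts in Wei, against 30, 76 and 710 counts in Yorkshire, and CXCL10 had 150, 13 and 21 in Wei and 45, 48 and 392 in Yorkshire. Both were highest in Yorkshire replicate 3, with edgeR adjusted p of 0.272 and 0.658.

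Markers of other tissue components were read beside these values. Red blood cell genes summed to 15.97, 9.69 and 9.396 CPM in Wei, against 16.1, 13.6 and 8.89 CPM in Yorkshire, with no excess in Yorkshire replicate 3. The haemoglobin gene HBB, which made up most of each sum, had 13.8, 9.36 and 8.52 CPM in Wei, against 15.6, 12.9 and 8.71 CPM in Yorkshire. Lymphatic vessel and lymphoid stroma genes summed to 27.8, 25.4 and 32.4 CPM in Wei, against 17.04, 20.4 and 28.96 CPM in Yorkshire, so Yorkshire replicate 3 lay within the Wei range. Of 7 tested, PDPN, a surface protein of lymphatic endothelium and stromal cells, was called lower in Wei at -0.96 ± 0.21 (edgeR adjusted p = 0.04302), with adjusted p of 0.061 to 0.14 when any library was left out. It was the 1 gene of the 7 with a negative log2 fold change, and the median of the list was 0.54. Named after their values had been seen, PROX1, a transcription factor of lymphatic endothelium, was at 1.08 ± 0.295 (edgeR adjusted p = 0.0749; DESeq2 adjusted p = 0.0186, higher in Wei), and CCL21, a chemokine of lymphatic vessels, at 1.18 ± 0.48 (edgeR adjusted p = 0.191). Blood endothelium genes summed to 222, 166 and 231 CPM in Wei, against 239, 202 and 216 CPM in Yorkshire, and 0 of 9 passed, with PECAM1 at -0.38 ± 0.13 and VWF at -0.11 ± 0.22. Fibroblast genes had sums of 592, 1633 and 1317 CPM in Wei, against 2109, 3466 and 3179 CPM in Yorkshire, with all Wei libraries below all Yorkshire libraries. Of 9 tested, DPT, a matrix protein, was lower in Wei at -1.29 ± 0.21 (edgeR adjusted p = 0.0189), and it passed in 3 of 6 fits that left out a library, with an adjusted p of up to 0.076. All 9 log2 fold changes were negative, with a median of -0.73, and -0.60 without Yorkshire replicate 3. DESeq2 called 4 fibroblast genes lower and 0 higher, beside 4.03% and 5.16% of all genes. In the lymphatic and fibroblast lists edgeR thus called 1 gene each, beside 2.35% of all genes tested lower in Wei and 2.73% higher. In the red blood cell list 0 of 1 and in the muscle fibre list 0 of 7 tested genes passed, with HBB at -0.23 ± 0.26, ACTA1 at -0.39 ± 0.34 and MYH1 at 0.06 ± 0.33. The part of connective tissue in the leukocyte values was not tested.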

How the data were processed

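Loin RNA came from TRIZOL extraction and went into Illumina TruSeq libraries, per the labels' protocols. Without giving roles, the submitters' processing notes list TopHat2 2.0.9, CASAVA 1.7, edgeR and the build Sscrofa10.2. How genes were counted, with which annotation and strand setting, is not given in the sources used, so overlapping or near-identical genes may share reads. For each gene the authors deposited raw counts and FPKM values of every library, per the file headers. FPKM served only to compare levels between genes. Symbols are those of the table, and for genes outside the marker list 1774 IDs without a symbol were named from a table of gene names. No sequence is shown.

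The main test was edgeR's quasi-likelihood test (version 4.0.16 under R 4.3.3, breed as the only term), after TMM scaling and a filterByExpr filter with a minimum count of 10. P-values were adjusted over all genes by Benjamini-Hochberg (threshold 0.05). Fold changes set Wei over Yorkshire and carry edgeR's slight shrinkage by a prior count. Each SE was obtained by dividing the absolute log2 fold change without that shrinkage by the square root of F. DESeq2 1.42.0 and limma 3.58.1 voom were alternatives. The procedure was also run on simulated data with a common dispersion for all genes and no outlying library. That run does not show how the tests behave with a library such as Yorkshire replicate 3. Replicate numbers were not taken as pairs: the correlation of their deviations from the breed means was 0.14, -0.0066 and 0.022. All within-breed pairs differed by more than sampling noise (lowest chi-square over degrees of freedom 24.5). Intervals cover counting error only. Marker genes and lists were chosen with earlier results of these data known. Values per library are given for marker genes with an average log2 CPM of at least 1, an unadjusted p under 0.05 or no overlap between breeds. In other lists the genes past the threshold are named (up to 4), or else the 2 most abundant, of which 1 is not reported here. Others are said to be named after their values were seen or are given as counts.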

Additional observations from a re-analysis of the deposited data

How the results depend on the processing

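Results were recomputed with DESeq2, limma voom, RLE scaling, library size alone, a filter of 1 CPM, no count filter, summed rows per symbol, a replicate block, and each library left out in turn. The count of marker genes past the threshold was 0 in each direction in all of them except DESeq2 (4 lower) and no count filter (1 lower). Over all genes DESeq2 called 1273, against 671, and among the other lists 14, against 5, and the fit without a count filter called 8 there; the cause was not tested. With the replicate block, 477 genes, 0 marker genes and 7 genes of the other lists passed. Leaving out a library, with fewer samples in each fit, gave 60 to 394 genes (216, 394 and 240 with Wei replicate 1, 2 or 3 left out, against 276, 60 and 165 with Yorkshire replicate 1, 2 or 3 left out), 2 to 4 genes of the other lists, and a median of the marker genes from -1.24 to -0.017, the last without Yorkshire replicate 3. Without that library the log2 fold change turned in CD247 (0.42), TYROBP (0.25), CD68 (0.55), CSF1R (0.76), MRC1 (0.10), CD14 (0.67) and SIGLEC1 (0.17). CD68 also turned with limma voom (0.035), the replicate block (0.019) and without Wei replicate 1 (0.14), and CSF1R with limma voom (0.030) and the replicate block (0.030). Over the fits that left out a library, the lowest values were -0.59 for CD247, -1.08 for TYROBP, -0.38 for CD68, -0.66 for CSF1R, -1.71 for MRC1, -0.77 for CD14 and -1.24 for SIGLEC1, and the highest of MSR1 was 0.69. MSR1, at 0.027, turned with library size alone (-0.025), without Wei replicate 3 (-0.077) and without Yorkshire replicates 1 (-0.30) and 2 (-0.10). No value that turned had passed the threshold. Depth limits 12 of the 38 genes, which missed the count filter.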

Other observations

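Outside the lists, 1240 named genes with an average log2 CPM of at least 1 were highest in Yorkshire replicate 3, and the 10 with the widest gap to the second highest library were GBP1, GBP4, IGLC, IL10RA, C2, PSMB8, ARHGAP30, PLXNC1, RAC3 and CENPE. They were picked for that gap, so the values are a description with no test. GBP1 and GBP4, interferon-induced GTPases of a family with near-identical copies, so that their counts are uncertain, had 117 and 92.5 CPM in that library. In Wei replicates 1 to 3 GBP1 had 17.2, 4.94 and 6.41 CPM, against 9.93 and 27.9 CPM in Yorkshire replicates 1 and 2. Yorkshire replicate 2 thus lay above the Wei libraries as well. IGLC, an immunoglobulin light chain constant gene of uncertain count for the same reason, had 2.19, 1.24 and 3.08 CPM in Wei, against 1.17, 1.38 and 11.7 CPM in Yorkshire. JCHAIN, the other antibody gene described here, had 8.27 CPM in Yorkshire replicate 3, above the other Yorkshire libraries at 3.99 and 3.65 CPM. Unlike IGLC, it was not above all Wei libraries there, with 9.64 CPM in Wei replicate 3.

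IL10RA, a cytokine receptor of leukocytes, had 1.77, 2.34 and 1.81 CPM in Wei, against 1.95, 1.71 and 8.198 CPM in Yorkshire. C2, a complement protease, had 2.78, 4.29 and 3.91 CPM in Wei, against 2.74, 3.48 and 14.9 CPM in Yorkshire. PSMB8, a subunit of the immunoproteasome, had 2.96, 2.28 and 2.99 CPM in Wei, against 3.36, 3.37 and 11.5 CPM in Yorkshire. ARHGAP30, PLXNC1 and a row named RAC3, whose description in the table is that of another Rac gene, had 7.51, 7.36 and 9.07 CPM in Yorkshire replicate 3. The widest gap belonged to CENPE, a motor protein of dividing chromosomes and no leukocyte marker, with 0.177, 0.585 and 0.147 CPM in Wei, against 0.586, 0.996 and 8.85 CPM in Yorkshire. None of the 10 passed edgeR's test between the breeds, with Benjamini-Hochberg adjusted p from 0.107 to 0.446.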
